A study of Homo sapiens with 6 samples.

Results

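The S100 genes encode small calcium-binding proteins, and 10 of them (S100A2, S100A3, S100A4, S100A6, S100A10, S100A11, S100A13, S100A14, S100A16 and S100P) are described here among the 24462 gene symbols of the count data. The members were found by their symbol, and each has a single entry per library. The list leaves out 11 other S100 symbols of the files, which have at most 3 counts in every library. The comparison is between 1CT, an immortalized human colonic epithelial cell (HCEC) line with an hTERT manipulation, and 1CT-A. The latter is the same line after depletion of wild type APC, which the labels describe as knocked down for APC. Each line has 3 libraries of untreated cells, made with the Lexogen Quant-Seq kit from 500 ng of total RNA. Both lines were grown with 20 ng/mL EGF and 2% serum, together with hydrocortisone, insulin, selenite and transferrin. Each cell line stands for a single background, the sources used here do not say how APC was depleted or whether 1CT carries a control vector, and the labels do not say whether the replicates are separate cultures, so the p-values measure only the spread between these libraries.

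S100 proteins are built from a pair of EF-hand motifs, helix-loop-helix folds that hold calcium, and most work as dimers. Calcium opens a hydrophobic surface on the dimer, through which it grips a target such as an annexin, a myosin or a scaffold protein. S100A10 is the exception, since it no longer needs calcium and stays bound to annexin A2. Some members are also released from cells and act on surface receptors. Most of the family sits in a cluster at 1q21, with S100P elsewhere in the genome, and in the colon several members are studied for their levels in tumors.

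The targeted gene comes first as a check of the labels. APC, the scaffold of the β-catenin destruction complex, is at 46.6 ± 2.75 CPM (counts scaled to a library total of 1000000; SD, n = 3) in 1CT and drops to 31.9 ± 2.21 CPM after depletion. The log2 fold change is -0.58 (SE 0.09, edgeR adjusted p = 0.00018), where the fold change is 1CT-A over 1CT, as it is throughout. Library totals are 7788679 to 8452258 counts for 1CT and 11158108 to 12602988 counts for 1CT-A, and 3 counts, taken as the smallest visible value, correspond to 0.355 to 0.385 CPM and 0.238 to 0.269 CPM. Replicate 3 of 1CT differs most from its fellow replicates (chi-square per degree of freedom of 7.54 and 9.0, against 3.11 to 4.56 for the other pairs).

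The labelled cell type is not marked by most of its usual genes. Of 10 colonic epithelial markers, EPCAM, VIL1 and CDX1 are listed at 0 in all 6 libraries, 6 have at most 3 counts in every library, and the list sums to 13.4 to 17.6 CPM for 1CT and 3.23 to 7.20 CPM after APC depletion. Both epithelial markers that could be tested are lower in 1CT-A: KRT18 (keratin 18) has a log2 fold change of -1.19 (SE 0.23), and KRT19 (keratin 19) has 20, 27 and 34 counts in 1CT and 0 in each 1CT-A library, at least 13-fold lower when set against the floor of 3 counts per library. The 9 fibroblast markers are all tested and sum to 4711 to 5755 CPM for 1CT and 4382 to 4696 CPM for 1CT-A. Among them COL3A1 (2.37, SE 0.18) and DCN (0.30, SE 0.10) are higher in 1CT-A, while 4 are lower, led by PDGFRB (-0.98, SE 0.13) and THY1 (-0.91, SE 0.09), all log2 fold changes. The call of DCN is lost without replicate 2 or replicate 3 of 1CT-A (adjusted p up to 0.087), and the fibroblast list then has 1 gene higher.

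Markers of other cells that make S100 proteins are nearly absent. Of 8 leukocyte markers, PTPRC and CD3E are listed at 0, 1 is tested (CD68, log2 fold change -0.41, SE 0.15), and the other members of that list sum to 0.439 to 2.70 CPM. Of the glial and melanocytic markers SOX10 and GFAP are listed at 0 in all libraries. The part of these marker changes in the results below was not tested, and in bulk RNA fewer cells of a type and less RNA per cell cannot be told apart.

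The regions upstream of 3 neighboring members are shown because S100A2, S100A3 and S100A4 lie close together on the minus strand of chromosome 1 and include the lowest and the highest fold change of the tested members. Each sequence is the 250 bases before the transcript start in the RefSeq annotation of GRCh38.p14, written 5′ to 3′ on the strand of the gene, with matches to the motifs named below in capitals. The submitters' processing notes name hg19, so the coordinates describe the reference and not the counting. S100A2 has a second start in the table, and its first is shown.
S100A2, chr1:153565845-153566094: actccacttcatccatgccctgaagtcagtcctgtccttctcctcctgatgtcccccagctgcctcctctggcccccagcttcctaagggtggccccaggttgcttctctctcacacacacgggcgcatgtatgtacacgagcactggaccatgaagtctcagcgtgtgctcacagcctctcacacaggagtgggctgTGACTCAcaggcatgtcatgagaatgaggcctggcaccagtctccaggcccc
S100A3, chr1:153549259-153549508: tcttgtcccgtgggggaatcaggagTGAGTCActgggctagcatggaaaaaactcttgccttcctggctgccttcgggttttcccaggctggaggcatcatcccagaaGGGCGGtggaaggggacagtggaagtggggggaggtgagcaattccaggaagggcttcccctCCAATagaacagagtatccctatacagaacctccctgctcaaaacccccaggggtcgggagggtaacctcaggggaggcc
S100A4, chr1:153545807-153546056: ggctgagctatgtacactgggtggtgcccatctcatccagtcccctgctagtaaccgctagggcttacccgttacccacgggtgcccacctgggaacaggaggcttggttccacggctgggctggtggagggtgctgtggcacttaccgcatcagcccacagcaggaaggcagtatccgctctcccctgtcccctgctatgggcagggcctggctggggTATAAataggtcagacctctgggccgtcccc

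In these windows S100A4 has 1 TATAA (the core of the TATA box), S100A3 has 1 TGANTCA (an AP-1 site), 1 GGGCGG (a GC box) and 1 CCAAT, and S100A2 has 1 TGANTCA. All 10 members are in the promoter table, with 14 starts between them, and matches were searched on both strands. TATAA is found at 5 of the 14 starts (S100A4, S100A6, S100A13, S100A14 and S100P) and in 18.9% of the 35116 promoter windows of the table. TGANTCA is found at 2 starts, those of S100A2 and S100A3, and in 6.57% of all windows. GGGCGG is found at 6 starts (42.6% of all windows) and CCAAT at 3 (32.0%). The TCF/LEF core CTTTGNT (13.2% of all windows) and the E box CACGTG (6.34%) have no match at any of the 14 starts. A match describes letters in the window and not a bound site.

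Across the family the change is in one direction. Of the 8 members with enough counts to be tested, 7 are lower in 1CT-A, 0 are higher and S100A2 does not pass the test, while over all 12514 genes tested 26.0% are lower and 25.0% are higher at an adjusted p under 0.05. The median log2 fold change of the 8 members is -0.56, against -0.01 over all genes tested and 0.08 over the 1851 genes whose mean reaches 100 CPM, of which 24.6% are lower and which hold 5 of the members. For the same 7 members no 1CT library overlaps a 1CT-A library, and 27.9% of all genes tested are lower without overlap. The same 7 members are lower with each normalization, filter and tool tried, but at a fold change of at least 2 with an unadjusted p under 0.01 only S100A4 is lower, where 9.60% of all genes are.

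**Figure D1:**
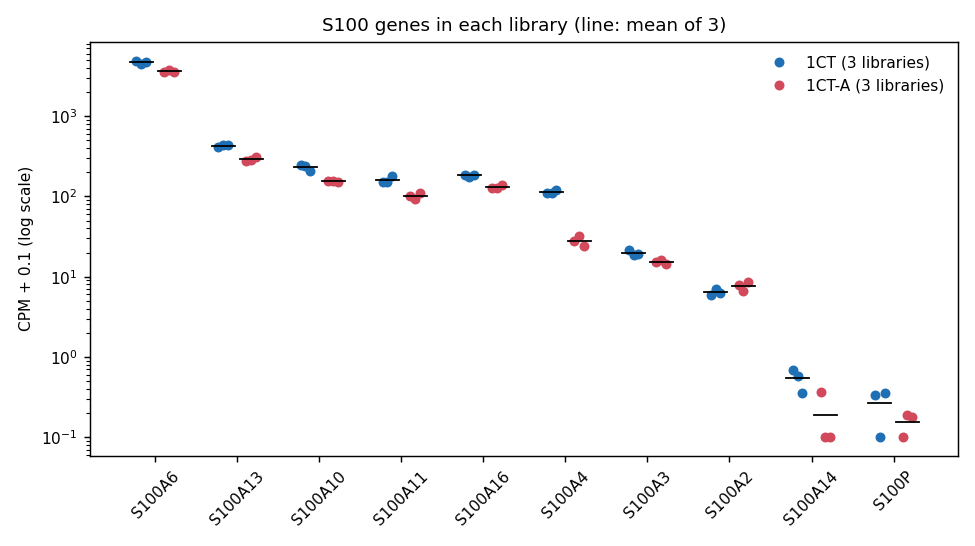
CPM + 0.1 on a log axis for each of the 10 S100 genes, with 3 points per cell line (blue, 1CT; red, 1CT-A) and a line at their mean. The red points lie below the blue ones from S100A6 (4742 against 3629 CPM) to S100A3, S100A2 overlaps, and S100A14 and S100P sit near the floor.

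S100A4, also known as metastasin or fibroblast-specific protein, binds the heavy chain of non-muscle myosin and has the largest fall of the 8 tested members. It is at 112, 109 and 121 CPM in the 1CT libraries and at 27.6, 31.9 and 23.7 CPM in the 1CT-A libraries. The highest 1CT-A library is thus far below the lowest 1CT library. The log2 fold change is -2.08 (SE 0.11, edgeR adjusted p = 8.2e-09), a level 4.23-fold lower, and 3.8% of all genes tested have a lower value. With any 1 library left out it stays between -2.18 and -1.97. In the annotation S100A4 and S100A3 overlap on the same strand, and reads in the overlap may have been counted for either gene.

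S100A6, or calcyclin, is by far the most counted member. Its values are 4938, 4492 and 4797 CPM in 1CT and 3533, 3769 and 3585 CPM in 1CT-A. All 1CT libraries are above all 1CT-A libraries, with a log2 fold change of -0.43 (SE 0.06, edgeR adjusted p = 8.5e-05). It ranks between 11 and 16 among all symbols in the 6 libraries and takes 0.353% to 0.494% of a library's counts. S100A6 makes up 79.8% to 81.3% of the S100 counts in 1CT and 82.5% to 84.1% in 1CT-A, so the sum over the 10 members, 5886 ± 229 CPM in 1CT and 4357 ± 117 CPM in 1CT-A (1.35-fold lower), mostly follows it. Without S100A6 the others sum to 1144 ± 11.3 CPM and 728 ± 28.6 CPM, 1.57-fold lower. Both sums give p = 0.1 in the exact two-sided permutation test, the smallest p that 3 libraries against 3 allow.

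S100A10 and S100A11, which lie at one end of the cluster, both bind annexins. S100A10 (p11) is at 247, 239 and 208 CPM in 1CT and at 157, 155 and 150 CPM in 1CT-A, with a log2 fold change of -0.63 (SE 0.08, edgeR adjusted p = 1.8e-05). S100A11 (calgizzarin) is at 149, 151 and 180 CPM in 1CT and at 101, 93.6 and 111 CPM in 1CT-A, with a log2 fold change of -0.69 (SE 0.10, edgeR adjusted p = 5.3e-05). Neither gene has a library of one cell line within the range of the other. Replicate 3 of 1CT is the lowest of its line for S100A10 and the highest for S100A11. Without it the log2 fold change is -0.68 for S100A10 and -0.58 for S100A11. Each value is an end of the range over all single libraries left out, -0.68 to -0.58 for S100A10 and -0.75 to -0.58 for S100A11.

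S100A13 and S100A16 are at the other end of the cluster, S100A13 taking part in the release of FGF1 and S100A16 being one of the most widely expressed members. S100A13 is at 412, 436 and 437 CPM in 1CT and at 275, 281 and 314 CPM in 1CT-A (log2 fold change -0.60, SE 0.07, edgeR adjusted p = 1.4e-05). S100A16 is at 187, 177 and 185 CPM in 1CT and at 129, 126 and 140 CPM in 1CT-A (log2 fold change -0.51, SE 0.07, edgeR adjusted p = 6.8e-05). In both genes the libraries separate and the spread within a cell line is small beside the difference. S100A13 overlaps S100A1 on the opposite strand, and S100A1 has 1 count in all libraries together.

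S100A3, a cysteine-rich member known from the hair cuticle, and S100A2, a keratinocyte protein that binds p53, have low levels. S100A3 is at 21.3, 18.6 and 19.3 CPM in 1CT and at 15.2, 15.9 and 14.4 CPM in 1CT-A. Its libraries do not overlap, and the log2 fold change is -0.42 (SE 0.12, edgeR adjusted p = 0.0086), the weakest of the 7 calls, with an adjusted p of up to 0.046 when a library is left out. S100A2 is at 5.80, 6.88 and 6.16 CPM in 1CT and at 7.89, 6.58 and 8.49 CPM in 1CT-A. These ranges overlap, and its log2 fold change of 0.25 (SE 0.17) does not pass the test (edgeR adjusted p = 0.25), with values from 0.17 to 0.35 over the alternative settings.

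S100A14 and S100P, which epithelial cells and their tumors can make at high levels, are hardly counted here. S100A14 was counted 5, 4 and 2 times in 1CT and 3, 0 and 0 times in 1CT-A, and S100P 2, 0 and 2 times in 1CT and 0, 1 and 1 times in 1CT-A. Both fall under the filter on low counts, so neither was tested for a difference, and counts this low leave any difference uncertain. The other S100 genes are hardly counted either. Of 11 further S100 symbols 8 are at 0 in all libraries, among the rest S100A9, a subunit of the leukocyte complex calprotectin, has at most 3 counts in a library, and none is tested. The 7 S100-fused genes of the skin barrier, such as FLG (filaggrin), are not tested either, with 4 at 0 in all libraries.

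The order of levels changes at a single point when CPM are divided by transcript length, and not in CPM alone. Divided by the length of the main GENCODE transcript, S100A6 leads in 1CT with 10930 ± 526 CPM per kb, followed by S100A13 (898 ± 29.1), S100A10 (345 ± 31.3), S100A11 (285 ± 30.8), S100A4 (222 ± 12.4), S100A16 (156 ± 4.72), S100A3 (26.6 ± 1.90) and S100A2 (6.43 ± 0.57). In that order S100A10 and S100A11 overlap between libraries, and no other neighbors do. In 1CT-A S100A6 is at 8361 ± 286 CPM per kb, S100A16 (112 ± 6.45) stands above S100A4 (54.1 ± 7.93), which moves from place 5 to place 6, and no neighbors overlap. In CPM that are not divided by length S100A4 is at place 6 in both lines, so this exchange depends on the scale. Kits that read transcript ends give counts that follow length less closely than whole-transcript libraries.

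The fold changes of neighboring members were compared through their count ratio within each library. The ratio of S100A3 to S100A4 is 0.190, 0.170 and 0.159 in 1CT and 0.549, 0.499 and 0.609 in 1CT-A, a log2 difference of 1.67. S100A4 also falls against S100A6 by 1.66 on the log2 scale, and the ratio of S100A2 to S100A3 is higher by 0.65, each without overlap of the libraries. S100A10 to S100A11 (log2 difference 0.07, exact permutation p = 0.8) and S100A13 to S100A16 (-0.09, exact permutation p = 0.3) overlap. Over the 7 pairs compared, the pairs without overlap have p = 0.1 in the exact two-sided permutation test, the smallest it can give, and 0.23 after adjustment. The 2 pairs with S100A14 rest on at most 5 of its counts and overlap (exact permutation p = 0.2).

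The genes on either side of the cluster move in both directions. Of 22 genes between and beside the S100 genes on 1q21, 18 are tested, of which 6 are higher, 3 are lower and 9 are neither, with a median log2 fold change of 0.15. That makes 33.3% higher and 16.7% lower, beside 25.0% and 26.0% of all genes tested. The larger rises are CREB3L4 (1.01, SE 0.26) and ILF2 (0.52, SE 0.08), and the larger falls are TDRKH (-1.96, SE 0.42) and SLC27A3 (-0.84, SE 0.25). TDRKH has only 12 to 13 counts per library in 1CT and 3 to 7 in 1CT-A. Named for their place alone, CHTOP and SNAPIN, which border the S100A1 end, have log2 fold changes of 0.34 (SE 0.08) and 0.24 (SE 0.08). The call of SNAPIN is lost with upper-quartile normalization and without replicate 2 or 3 of 1CT-A (adjusted p up to 0.10), and that of SLC27A3 without replicate 3 of 1CT-A (0.058). Between S100A11 and S100A9 lie 49 symbols, among them the genes of the epidermal differentiation complex, of which 46 have at most 3 counts in every library and 0 are tested.

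**Figure D2:**
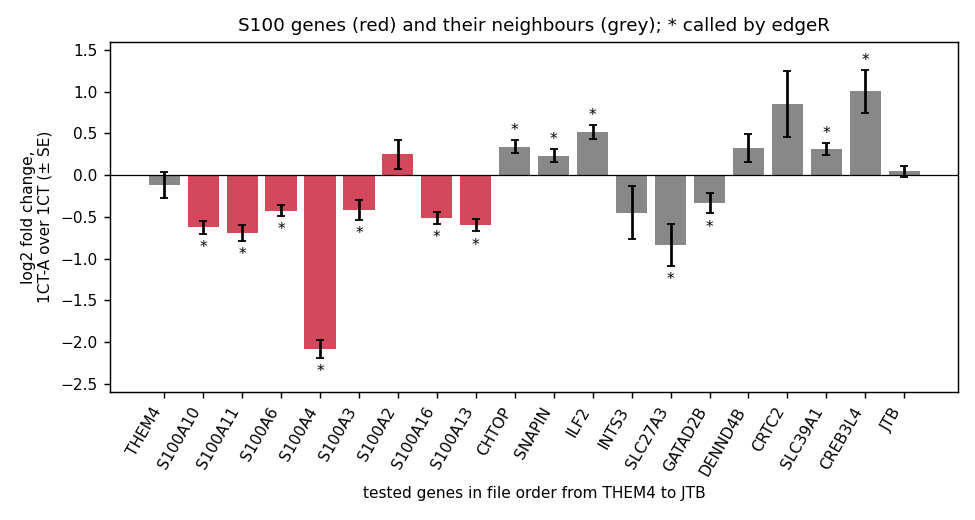
Log2 fold change (± SE) of the tested genes from THEM4 to JTB in the order of the count data, S100 genes in red and other genes in grey, with an asterisk for an adjusted p under 0.05. Red bars point down except that of S100A2, and 5 of the 11 tested genes after S100A1 are called higher and 2 lower.

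The binding partners move both ways. Of 20 partners fixed in a list, 18 are tested, and 10 are lower, 3 are higher and 5 are neither in 1CT-A, with a median log2 fold change of -0.27. As shares, 55.6% are lower and 16.7% higher, where 26.0% and 25.0% of all genes tested are. ANXA2, the annexin that holds S100A10 at the membrane, is at 1786, 1772 and 1887 CPM in 1CT and at 990, 1018 and 983 CPM in 1CT-A (log2 fold change -0.90, SE 0.06, edgeR adjusted p = 1.1e-07). AHNAK, a giant scaffold protein of the same complex, is also lower (-0.72, SE 0.11, edgeR adjusted p = 0.00010). DLC1, a tumor suppressor that S100A10 also binds, is not called (-0.10, SE 0.08, edgeR adjusted p = 0.31) and overlaps between the lines, so of these 3 partners 2 are lower along with S100A10. The ratio of S100A10 to ANXA2 is 0.138, 0.135 and 0.110 in 1CT and 0.159, 0.153 and 0.152 in 1CT-A. It is higher without overlap by 0.28 on the log2 scale, but the 95% interval of this difference, -0.015 to 0.58, spans both signs. The ratio of S100A10 to AHNAK overlaps (0.09, exact permutation p = 0.5).

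The partners of S100A11 and S100A6 include genes that are higher. ANXA6, a further annexin of the partner list, is lower (log2 fold change -0.67, SE 0.07, edgeR adjusted p = 4.6e-06). ANXA1, the annexin bound by S100A11, is at 85.3, 88.0 and 50.7 CPM in 1CT and at 123, 138 and 121 CPM in 1CT-A (log2 fold change 0.73, SE 0.15, edgeR adjusted p = 0.0013). Replicate 3 of 1CT is the low one, and in it the ratio of S100A11 to ANXA1 is 3.55, against 1.75 and 1.72 in the other 1CT libraries and 0.820, 0.679 and 0.918 in 1CT-A. The mean log2 ratio is lower in 1CT-A by 1.46, and the libraries do not overlap with or without that replicate.

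CACYBP, the calcyclin-binding protein that takes part in the breakdown of β-catenin, is at 168, 162 and 152 CPM in 1CT and at 243, 242 and 242 CPM in 1CT-A (log2 fold change 0.55, SE 0.07, edgeR adjusted p = 1.7e-05). Its libraries are tightly grouped, and against them S100A6 falls from 29.4, 27.7 and 31.5 counts per CACYBP count to 14.6, 15.6 and 14.8, a log2 difference of -0.98. SUGT1, a co-chaperone that S100A6 also binds, is higher as well (0.30, SE 0.07). ANXA11 is not called (0.04, SE 0.10, edgeR adjusted p = 0.75), and its sign turns with upper-quartile normalization. The ratio of S100A6 to ANXA11 is lower without overlap, from 109, 92.8 and 83.8 to 68.7, 72.5 and 64.0, a log2 difference of -0.47.

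MYH9, the non-muscle myosin heavy chain bound by S100A4, has a smaller fall (-0.23, SE 0.06, edgeR adjusted p = 0.0093). The ratio of S100A4 to MYH9 goes from 0.238, 0.211 and 0.253 to 0.0661, 0.0731 and 0.0547, a log2 difference of -1.86. FGF1, the growth factor that leaves cells with S100A13, is lower (-0.95, SE 0.18, edgeR adjusted p = 0.00073), and so is SYT1, the synaptotagmin of the same release complex (-1.57, SE 0.17, edgeR adjusted p = 8.2e-06), the largest fall in the list. FGF1 has only 48 to 85 counts per library, and the ratio of S100A13 to FGF1 overlaps between the lines (log2 difference 0.35, exact permutation p = 0.3). EZR (ezrin), which links the membrane to actin and is bound by S100P, is lower (-0.80, SE 0.10, edgeR adjusted p = 1.6e-05), and the ratio of S100P to EZR, which rests on at most 2 counts of S100P per library, overlaps (log2 difference -0.25, exact permutation p = 0.6). Over the 8 partner pairs, the 5 without overlap have p = 0.1 in the exact two-sided permutation test, the smallest possible, and 0.16 after adjustment.

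**Figure D3:**
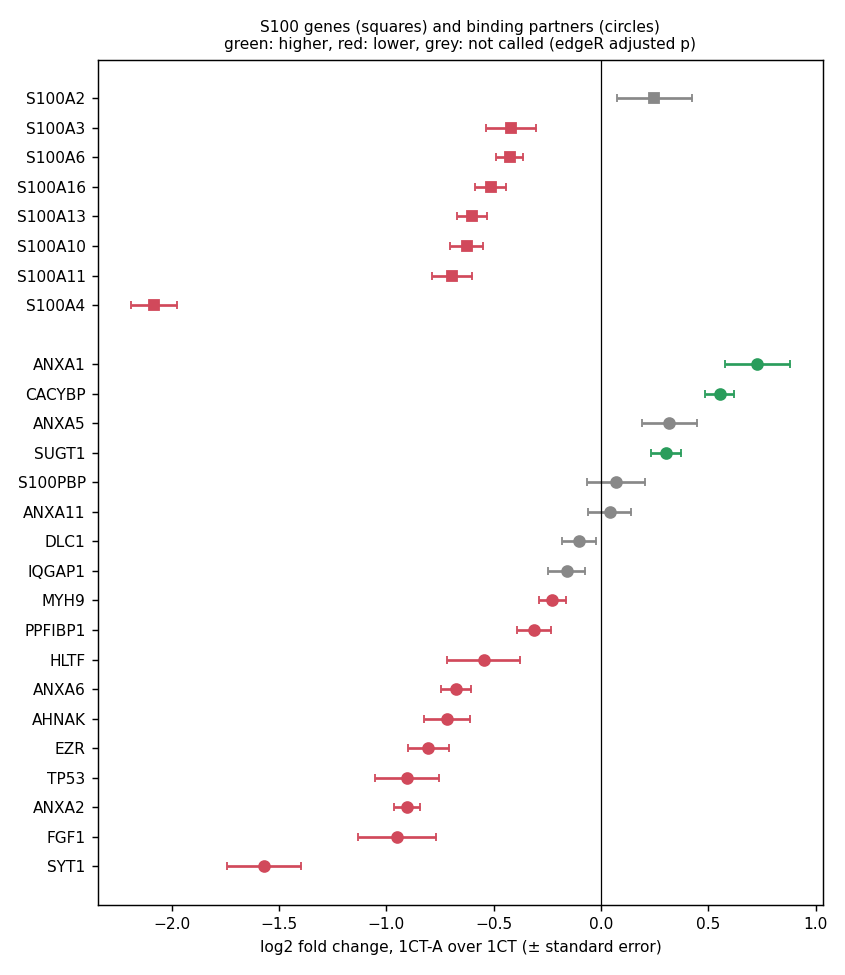
Log2 fold change (± SE) of the 8 tested S100 genes (squares) and the 18 tested binding partners (circles), coloured by the edgeR call. All squares but S100A2 are to the left of 0, with S100A4 at -2.08, while the circles run from SYT1 (-1.57) to ANXA1 (0.73).

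**Figure D4:**
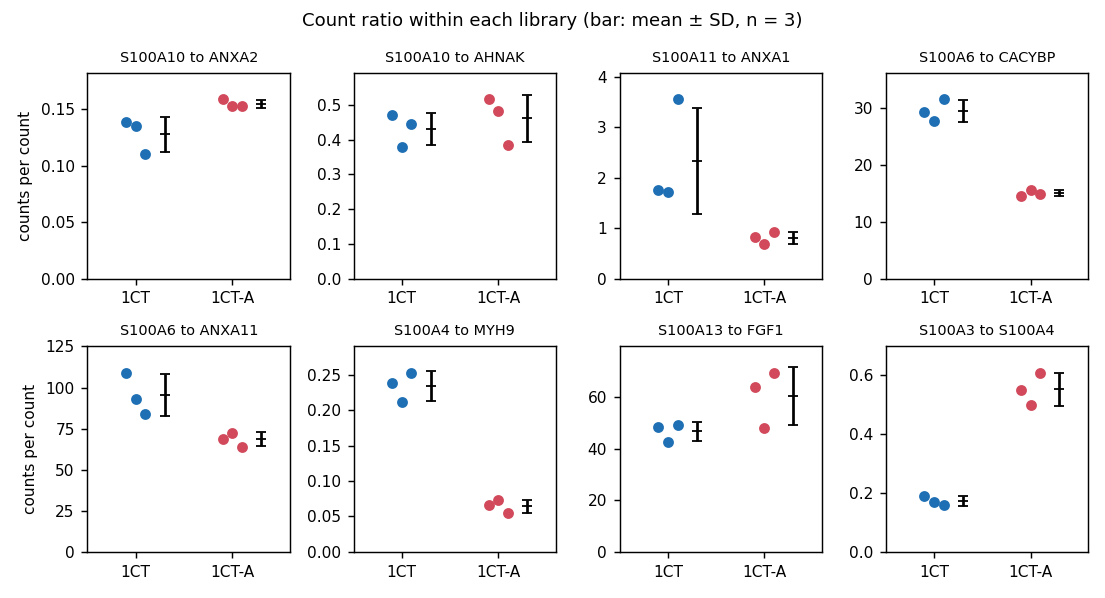
Count ratio within each library for 7 S100 genes and partners and for S100A3 to S100A4, with points for the 3 libraries and a bar for mean ± SD, each axis starting at 0. Ratios separate between the lines except for S100A10 to AHNAK and S100A13 to FGF1.

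Receptors for released S100 proteins are mostly lower. Of 8 listed receptors 6 are tested, 5 are lower, 0 are higher and 1 is neither, while 26.0% of all genes tested are lower and 25.0% higher. AGER, also in the list, has only 3 to 8 counts per library and is not tested. Several of the calls are close to the threshold, and 3 are called lower without replicate 1 of 1CT, replicate 1 of 1CT-A or replicate 2 of 1CT-A. TLR4, the innate receptor for S100A8 and S100A9, has 240, 209 and 141 counts in 1CT and 0, 0 and 2 counts in 1CT-A. Relative to the library totals the pooled counts are 423-fold lower (95% exact interval 117 to 3500, for counting error only). Both 1CT-A counts are in replicate 3, and without that library TLR4 is at least 89.9-fold lower against the floor of 3 counts per library. Without replicate 1 or replicate 2 of 1CT-A the pooled ratio is 289 or 286. ALCAM, an adhesion molecule, is lower with a log2 fold change of -0.74 (SE 0.07, edgeR adjusted p = 2.5e-06). Its 1CT values of 333, 388 and 354 CPM are all above the 1CT-A values of 216, 221 and 225 CPM.

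Other calcium-binding genes move in both directions. Of 38 other EF-hand genes 31 are tested, with 4 higher, 10 lower and 17 neither and a median log2 fold change of -0.04. Their shares are 12.9% higher and 32.3% lower, against 25.0% and 26.0% of all genes tested. CALML4, a calmodulin-like gene (0.97, SE 0.16), and STIM2, a calcium sensor of the endoplasmic reticulum (0.55, SE 0.08), are the larger rises. GCA, the neutrophil protein grancalcin (-2.16, SE 0.36, from 19 to 38 counts per library in 1CT and 6 to 13 in 1CT-A), and RCN3, a reticulocalbin of the secretory pathway (-1.35, SE 0.22), are the larger falls. Of 8 annexins outside the partner list 3 are tested, with ANXA3 higher (2.16, SE 0.50, on 1 to 3 counts per library in 1CT and 12 to 15 in 1CT-A), ANXA4 lower (-0.37, SE 0.12) and 1 not called. Without replicate 1 or 3 of 1CT-A, or with at least 10 counts asked of every library, ANXA3 falls under the filter and 0 of these annexins are higher. The call of ANXA4 is lost when replicate 1 or 2 of 1CT or replicate 1 or 3 of 1CT-A is left out (adjusted p up to 0.094).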

How the data were processed

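RNA of 3 libraries of 1CT and 3 of 1CT-A was extracted with Trizol per the labels, made into Quant-Seq libraries and sequenced on a NextSeq 500. The authors deposited raw counts per gene symbol, 1 file per library with 25737 entries, without normalization. The submitters' processing notes name Bowtie2, edgeR and hg19, with no role given. The counting tool, the annotation, the use of strand and filters on reads are not given in the sources used here, so overlapping genes are uncertain. Totals were 7788679 to 12602988 counts per library, and intervals and floors (3 counts) cover counting error only.

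Counts of the 286 symbols entered repeatedly were summed. CPM were taken of each total. 1CT-A was compared with 1CT over 12514 genes with the quasi-likelihood test of edgeR 4.0.16 (R 4.3.3, TMM, filterByExpr with a minimum count of 10, common dispersion 0.00733), and p-values were adjusted by the Benjamini-Hochberg method over all of them. An adjusted p under 0.05 was taken as a call. Single values and count ratios (0.5 added to each count on the log2 scale) were compared by exact two-sided permutation tests over libraries. Lengths are from GENCODE release 44 and upstream sequences from RefSeq. Named are all 10 members, the partners in the ratio pairs, up to 2 of the larger rises and 2 of the larger falls among the called genes of each list, and APC. SUGT1, DLC1, ANXA6, AGER, CHTOP, SNAPIN and the genes listed at or near 0 fall outside this rule. They were named for their place or after their values were seen. Members and lists were chosen with earlier results of these data known. Alternatives were other normalizations, filters and thresholds, DESeq2 1.42.0, limma-voom (limma 3.58.1), a replicate block, repeated symbols left out and each library left out in turn. Nothing was added to them after the data were seen. Protein sequences were not analysed here, and some genes of the lists are not reported here.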

Additional observations from a re-analysis of the deposited data

How the results depend on the processing

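The log2 fold changes of the 8 tested members kept their direction and their side of the threshold in 120 of 120 alternative values, and the sum over the members kept its direction in all of its own. Of the alternative values of the count ratios, 116 of 120 kept their direction. With single libraries left out, the log2 ratio difference ran from -0.95 to 0.22 for S100P to EZR and from -0.094 to 0.17 for S100A10 to S100A11.

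At a fold change of at least 2 with an unadjusted p under 0.01, the calls fell to 1 lower member and, over all genes, 475 higher and 1201 lower (against 3131 and 3257). Under the same thresholds there were 0 higher and 1 lower binding partners, 1 lower receptor, 0 lower annexins outside the partner list, 0 higher and 2 lower EF-hand genes, 1 higher and 1 lower gene of 1q21, 1 higher and 0 lower fibroblast markers and 0 lower leukocyte markers. At an adjusted p under 0.01 there were 3 lower receptors, 0 lower annexins, 1 lower gene of 1q21, 1 higher fibroblast marker and 0 lower leukocyte markers. These follow from the stricter thresholds. For the other changes the cause was not tested. With library size only 3 receptors were lower and 0 leukocyte markers. Without the filter 3 receptors were lower, and 3 annexins were higher and 2 lower. With at least 10 counts in every library 0 annexins were higher and 1 epithelial marker was lower. With DESeq2 0 leukocyte markers were lower. With single libraries left out, the receptors had 0 to 1 higher and 3 to 5 lower, the annexins 0 to 3 higher and 0 to 1 lower, and the fibroblast markers 1 to 3 higher.

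ANXA11, near 0, changed sign. It was at -0.016 with upper-quartile normalization, and from -0.032 to 0.16 with single libraries left out.

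Replicate numbers 1 to 3 are shared by both lines, and whether they pair the libraries is not known. Deviations from the line means correlated at -0.16, 0.22 and -0.14 within the same number over 8224 genes, and not every library correlated best with its own number. The deviations of a line are tied to each other through its mean, so these correlations cannot settle a pairing. With the replicate block 2993 genes were higher and 3098 lower, 7 members were lower, and 0 leukocyte markers were lower. The permutation tests with 3 libraries per line cannot pass 0.05, so their p-values say nothing about stability. Depth limits S100A14, S100P and the other S100 genes, whose counts of at most 5 per library fall under the filter, so no fold change is given for them.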
